A study of Arabidopsis thaliana with 3 samples.

Results

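The mitochondrial genes of Arabidopsis thaliana were described from the 122 loci whose identifiers begin with ATMG, out of 27374 loci listed. Every transcript with such an identifier was taken, and its values were summed per locus. The 122 loci had 122 transcripts, so each value below is that of 1 transcript. The seedlings were wild-type Col-0, the reference accession, 9 days old, and had been raised on MS plates at 23 °C under days of 16 h light and 8 h dark. RNA of whole plants was depleted of ribosomal RNA and sequenced as 3 strand-specific libraries, which form 1 group without a mutant or a treatment. Nothing in the labels says that the plants behind the libraries were grown separately, so each SD and p-value measures the spread between these libraries, which may be technical. The comparisons therefore set mitochondrial loci against each other, against nuclear loci and against their copies in the nucleus. Values are FPKM, that is fragments scaled by transcript length and by the mapped fragments of the library. The scaling is meant to make levels of genes of different length comparable. It is least certain for short transcripts, such as that of the gene atp9 with 258 coding bases.

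Plant mitochondria keep a genome of their own, which encodes core subunits of respiratory complexes I, III, IV and V. It also encodes some proteins of the mitochondrial ribosome and part of the machinery that attaches heme to cytochrome c. All other subunits of these complexes are made from nuclear genes and imported. Plant mitochondrial transcripts are spliced, some of them from separately transcribed pieces, and many cytidines in them are edited to uridine. In Col-0 a large piece of the mitochondrial genome is also present in the nucleus, near the centromere of chromosome 2.

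A product could be read for only some of the loci. The RefSeq annotation of TAIR10.1 names 32 protein-coding genes on its mitochondrial sequence without the ATMG identifiers, but its notes tie 53 of the 122 loci to nuclear genes. Through these notes 17 loci were given the name of a respiratory subunit, a ribosomal protein or a cytochrome c maturation protein, and 7 open reading frames another description. A further 29 tied loci are annotated as unknown or as pseudogenes. The remaining 69 loci are named by identifier only, because no annotation used here describes them. The submitters' notes name the build TAIR10, and all coordinates given here are those of TAIR10.1, whose mitochondrial sequence may differ from the one the authors used.

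The sequence of atp9 is shown because it belongs to the most abundant of the 122 transcripts and because it exists unchanged in both genomes. The gene lies at MT:270961-271218 on the minus strand, with 258 bases from start to stop codon, which are in capitals. The coding sequence of the nuclear gene AT2G07671 at chr2:3251856-3252113, minus strand, has 0 mismatches to it.
atp9: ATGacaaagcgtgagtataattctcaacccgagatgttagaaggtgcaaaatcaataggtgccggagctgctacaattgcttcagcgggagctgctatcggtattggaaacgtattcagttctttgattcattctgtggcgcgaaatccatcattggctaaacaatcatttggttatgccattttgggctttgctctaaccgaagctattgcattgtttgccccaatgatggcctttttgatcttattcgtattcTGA

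The gene for ribosomal protein L2 shows the other kind of pair, in which the nuclear copy differs. Between rpl2 and AT2G07715 the match covered 907 bases with 3 mismatches, C520T, C521T and G807A (mitochondrial base, position in the nuclear coding sequence counted from its first base, nuclear base). The window around the adjacent differences lies at MT:222071-222111 on the minus strand and at chr2:3411679-3411719 on the plus strand, with the differing bases in capitals.
rpl2, mitochondrial: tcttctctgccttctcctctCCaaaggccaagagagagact
rpl2, nuclear copy: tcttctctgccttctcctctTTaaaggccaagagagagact

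Mitochondrial transcripts were detected across nearly the whole set. Of the 122 loci, 117 had at least 1 FPKM in every library, while 63.5% of all 27374 listed loci did. The median of the mean FPKM was 27.7 for the mitochondrial loci and 3.81 for all loci. The mean was at least 10 FPKM in 84 mitochondrial loci and at least 100 FPKM in 35, and 19 ranked above the 99th percentile of all loci. Together they held 1.25%, 1.40% and 1.48% of the summed FPKM in libraries 1, 2 and 3. A single chloroplast transcript, ATCG00700, held 44.6%, 45.5% and 43.3% of the same sums, so these shares depend on it.

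The level was concentrated in a few loci. atp9 alone made up 19.2% ± 0.494 (SD, n = 3) of the mitochondrial FPKM, and the 10 highest loci 59.1% ± 0.299. The 17 loci with a described role held 40.1% ± 0.219, and the 69 undescribed loci held 55.5% ± 0.298. Among the 15 highest loci, 5 had a described role and 10 were undescribed. Undescribed means only that no annotation used here gave a product. All 10 are on the planned lists of mitochondrial genes for respiratory complexes or ribosomal proteins. The 5 loci that missed 1 FPKM in some library were all undescribed. ATMG00665 was listed at 0 in all 3 libraries, and ATMG00850 was listed at 0, 0.939 and 0 FPKM. ATMG00870 lay between 0.139 and 0.508 FPKM and ATMG01240 between 0.494 and 0.926. ATMG01400 had 2.15, 0.438 and 2.84 FPKM.

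**Figure D1:**
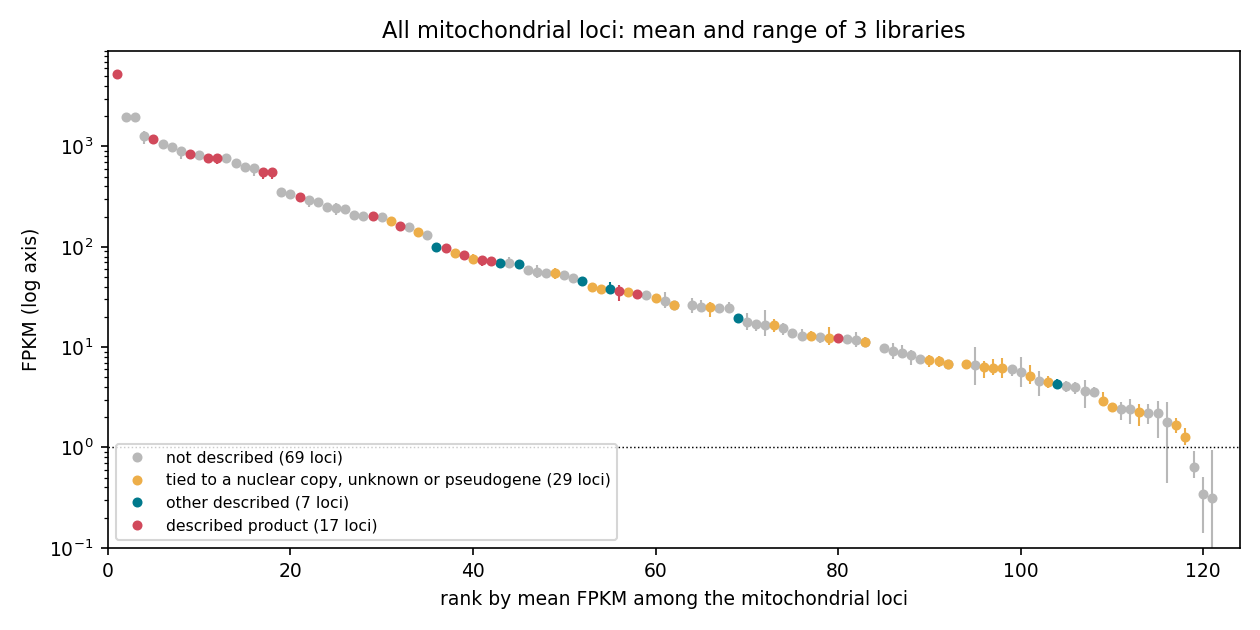
Mean FPKM (log axis) of the mitochondrial loci against their rank, with vertical lines from the lowest to the highest of 3 libraries and a dotted line at 1 FPKM. Loci with a described role lie between 5302 and 12.3 FPKM, undescribed loci occur from the top to the bottom, and ATMG00665, listed at 0, is not drawn.

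ATP synthase subunits stood at the top of the described loci. atp9, the subunit that forms the membrane rotor ring, had 5059, 5238 and 5610 FPKM, and 6 of 27164 nuclear loci had a higher mean. Among these 6 was AT2G07671, the nuclear copy with the same coding sequence as atp9, with a mean of 7385 FPKM. atp1, the alpha subunit of the catalytic head, had 1165, 1179 and 1188 FPKM and was almost level between libraries. Its mean and that of atp9 differed 4.50-fold, and the groups of values did not overlap. atp8, a membrane-sector subunit, had 792, 888 and 861 FPKM. atp6-1, which encodes the subunit that carries the proton channel, had 671, 827 and 827 FPKM. The values of atp8 and atp6-1 overlapped, and all of them lay below those of atp1.

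Relative to atp1 within each library, atp9 was higher by 2.17 ± 0.070 (SE, n = 3) on the log2(FPKM + 1) scale, with a limma adjusted p of 6.5e-09. atp8 was lower, at -0.48 ± 0.052 (limma adjusted p = 3.0e-05), and so was atp6-1, at -0.61 ± 0.067 (limma adjusted p = 3.3e-05). Each direction held in 3 of 3 libraries. Differences of this kind are common, since 99.9% of the 17867 loci fitted against atp1 passed the same threshold. Among 117 mitochondrial loci fitted, 3 were higher than atp1, 113 were lower, and ATMG00270 did not pass.

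Complexes III and IV were each represented by 1 described locus. cob encodes apocytochrome b, the heme-bearing core of complex III, and had 475, 594 and 593 FPKM. cox3, a core subunit of cytochrome c oxidase, had 709.5, 790.2 and 826 FPKM. Every value of cox3 lay above every value of cob. The difference of cox3 from cob was 0.49 ± 0.15 on the log2 scale, with a limma adjusted p of 0.00081, where 99.7% of all loci fitted differed from cob. It was lost when library 2 was left out (0.53, adjusted p = 0.052) or library 3 (0.50, adjusted p = 0.074), while over all 6 alternatives the limma adjusted p ran from 8.7e-05 to 0.074. The planned reference for complexes III and IV was ATMG01360, entered as cox1 but not described by the annotation used here. It had 933, 996 and 1038 FPKM, and cob and cox3 were both below it. Here cob was at -0.84 ± 0.088 (limma adjusted p = 8.2e-22) and cox3 at -0.35 ± 0.089 (limma adjusted p = 8.0e-05), and 99.9% of all loci fitted differed from ATMG01360.

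The 3 described loci of complex I, the NADH dehydrogenase, differed widely from each other. All of them encode subunits of the membrane arm or pieces of such subunits. nad2b had 474, 576 and 604 FPKM, nad1a had 91.4, 94.7 and 105, and nad3 had 28.9, 39.5 and 41.4. No value of one locus reached those of the next, and library 1 was lowest for all 3. nad1 and nad2 are annotated as joined from separately transcribed pieces, so nad1a and nad2b stand for pieces of their genes and not for whole messages.

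Relative to nad2b, nad1a lay at -2.49 ± 0.16 and nad3 at -3.89 ± 0.16 on the log2 scale, and 99.7% of all loci fitted differed from nad2b. The highest limma adjusted p over 6 alternatives was 1.7e-08 for nad1a and 6.9e-09 for nad3. The planned reference for complex I was ATMG00510, entered as nad7 but not described by the annotation used here. It had 774, 750.5 and 799 FPKM, and 99.8% of loci differed from it. Against it nad2b lay at -0.50 ± 0.071 (limma adjusted p = 9.1e-05), nad1a at -2.98 ± 0.048 (limma adjusted p = 1.7e-12) and nad3 at -4.38 ± 0.087 (limma adjusted p = 1e-11).

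**Figure D2:**
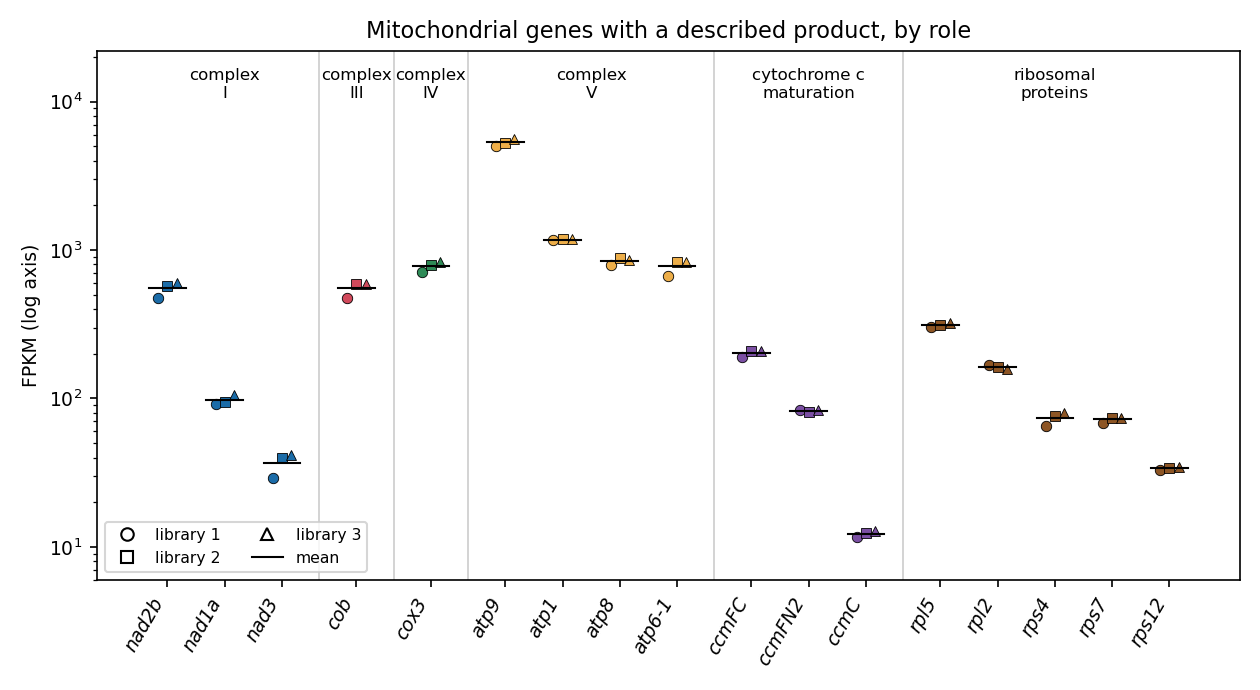
FPKM (log axis) of the 17 loci with a described role, grouped by complex or function, with 1 symbol per library and a line at the mean. atp9 lies highest at 5302 FPKM and ccmC lowest at 12.3, and the 3 libraries of a locus lie close together compared with the distances between loci.

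The cytochrome c maturation loci spanned a wide range although their products work in 1 pathway. ccmFC, part of the complex that attaches heme to the apoprotein, had 189, 209.8 and 208 FPKM. ccmFN2, another part of that complex, had 83.6, 81.1 and 83.2 FPKM. ccmC, which handles heme at the membrane, had 11.7, 12.5 and 12.8 FPKM, the lowest level of the 17 described loci. The 3 loci did not overlap in any library. They differ in how far they match their nuclear copies. ccmC is identical to AT2G07771 over the whole coding sequence of that copy, while the match of ccmFC covers 34.8% of AT2G07815. How reads were divided between loci and copies was not tested, and it may affect these levels unequally.

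Relative to ccmC, ccmFC was higher by 3.93 ± 0.069 on the log2 scale (limma adjusted p = 9.9e-23) and ccmFN2 by 2.65 ± 0.067 (limma adjusted p = 8.3e-20), in 3 of 3 libraries each. Of all loci fitted, 92.6% differed from ccmC. Among 117 mitochondrial loci, 75 were higher than ccmC and 34 lower, and 8 did not pass.

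Of the 5 described ribosomal proteins, those of the large subunit were the most abundant. This order holds for the described loci only, since further ribosomal protein genes may be among the undescribed loci. rpl5 had 301, 311 and 324 FPKM and rpl2 had 167, 163 and 158. The small-subunit loci were lower, with 64.8, 76.5 and 79.5 FPKM for rps4, 68.1, 74.4 and 74.0 for rps7, and 33.2, 34.0 and 34.5 for rps12. rps4 and rps7 overlapped, while the other neighbours in this order did not. rpl2 was 1 of only 2 among the 17 described loci that were not lowest in library 1.

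Relative to rps4, rpl5 was at 2.07 ± 0.13 (limma adjusted p = 3.4e-53), rpl2 at 1.14 ± 0.14 (limma adjusted p = 5.5e-17) and rps12 at -1.09 ± 0.13 (limma adjusted p = 1.5e-16). rps7 was at -0.02 ± 0.13 and did not pass (limma adjusted p = 0.86), with its sign shared by 2 of 3 libraries. Of all loci fitted, 97.2% differed from rps4. All ratios to 1 reference share the error of that reference, and limma pools their spread over all loci, so the p-values are smaller than 3 libraries alone would give.

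Neighbouring genes on the mitochondrial sequence did not always have like levels. nad3 and rps12 lie 45 bases apart on the same strand, and their values overlapped, at 28.9 to 41.4 and 33.2 to 34.5 FPKM. rpl5 and cob lie 1903 bases apart on the minus strand, with means of 312 ± 11.5 and 554 ± 68.5 FPKM (SD, n = 3). atp9 and orf262 lie 310 bases apart on the minus strand, with means of 5302 ± 281 and 99.3 ± 5.76 FPKM (SD, n = 3). These 3 pairs of neighbours were picked without a set rule, and a link between gap and level was not tested.

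The respiratory complexes draw on both genomes, and by their medians the described mitochondrial loci were more abundant than the nuclear genes in each complex that has both. For complex V the median of the mean FPKM was 1012 over 4 mitochondrial loci and 100.2 over 9 nuclear genes, a ratio of 10.1. The nuclear genes ran from AT5G08670 at 137 FPKM and MGP1 at 135 down to AT5G08680 at 50.9, so all 4 mitochondrial loci lay above all 9. For complex IV, cox3 stood against a nuclear median of 33.3 over 7 genes, a ratio of 23.3. The highest nuclear genes there were AT4G37830 at 182 FPKM and AT2G47380 at 71.2, and the lowest was AT5G61310 at 10.1.

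For complex III with cytochrome c, cob stood against a nuclear median of 49.1 over 10 genes, a ratio of 11.3. MPPBETA, a processing peptidase subunit that is also a core protein of this complex, was highest at 91.1 FPKM, AT5G13440 followed at 57.2, and CYTC-2, a cytochrome c gene, was lowest at 12.8. Among the described loci complex I had the smallest gap, with medians of 97.1 over 3 mitochondrial loci and 47.7 over 14 nuclear genes. The ratio was 2.04, but the planned list of complex I holds further loci that no annotation used here describes. Those loci run from ATMG00665 at 0 to ATMG00060 at 1962 FPKM and are not in the ratio. The small gap therefore holds for the 3 described loci only. Among the nuclear genes CI51 was highest at 91.3 FPKM and FRO1 next at 66.5, with GAMMA CA1, a carbonic anhydrase-like subunit, lowest at 17.5. nad3, at 36.6 FPKM, lay within the nuclear range. In complex II, for which none of the described mitochondrial loci encodes a subunit, 7 nuclear genes had a median of 31.6, from SDH5 at 65.1 and SDH3-1 at 33.9 to SDH2-1 at 12.6.

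The ribosomal proteins followed the same order. The 5 mitochondrial loci had a median of 73.6 FPKM and 7 nuclear genes for mitochondrial ribosomal proteins one of 12.4, a ratio of 5.95. MRPL11 at 44.3 FPKM and RPS14 at 20.9 were the highest nuclear members and HLL at 5.87 the lowest, and 4 of the 5 mitochondrial loci exceeded all 7. These medians describe the lists, which may not hold every subunit of either genome, and were not tested. In whole seedlings, more mitochondrial genomes per cell and more RNA per genome cannot be told apart, nor can differences in the cells that express each gene.

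**Figure D3:**
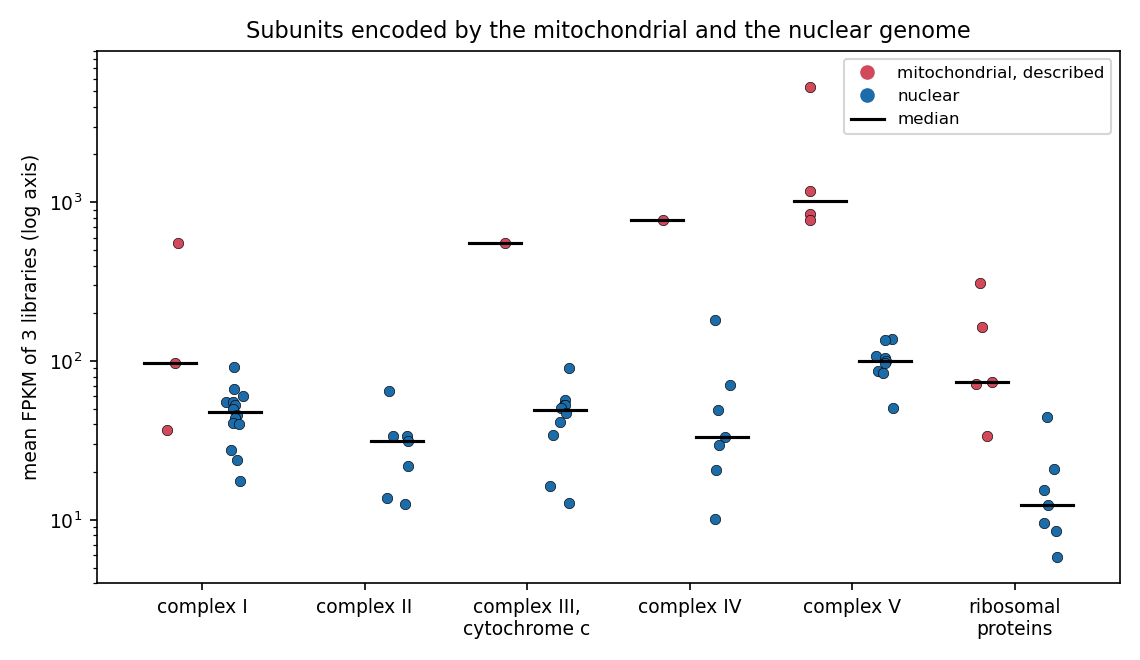
Mean FPKM of 3 libraries (log axis) of described mitochondrial loci and of nuclear genes for the same complex or ribosome, with lines at the medians. The mitochondrial median is above the nuclear one in all 5 groups that have both. Ratios of these listed loci run from 2.04 in complex I to 23.3 in complex IV, and undescribed loci are not included.

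Several open reading frames hold the start of a respiratory gene. orf313, which the reference describes as a cytochrome b/b6 protein, begins with 130 bases that match the first 130 of cob at 99.23%, and its bases 133 to 234 match the first 102 of nad6 at 97.06%. The stretches are shown because they are the shared ends of a chimeric reading frame, with differing bases in capitals. The matches lie at MT:207329-207458 and MT:182729-182858, both on the minus strand, and at MT:207225-207326 on the minus and MT:165838-165939 on the plus strand.
orf313, first stretch: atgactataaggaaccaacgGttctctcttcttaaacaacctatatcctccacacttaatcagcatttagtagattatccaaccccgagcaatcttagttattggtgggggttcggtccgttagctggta
cob: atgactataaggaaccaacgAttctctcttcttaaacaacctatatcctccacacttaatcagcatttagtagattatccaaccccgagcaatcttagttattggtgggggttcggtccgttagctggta
orf313, next stretch: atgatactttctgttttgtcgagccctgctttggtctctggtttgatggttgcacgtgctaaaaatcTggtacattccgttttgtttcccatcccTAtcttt
nad6: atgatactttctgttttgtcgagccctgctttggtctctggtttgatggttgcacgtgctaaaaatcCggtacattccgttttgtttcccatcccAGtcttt

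orf313 had 60.3, 70.5 and 71.7 FPKM, far below the 475 to 594 of cob. orf291, described as like cytochrome c oxidase subunit II, shared its first 306 bases with cox2 at 96.73%, which is 34.9% of its length. The first 120 bases are identical between orf291 at MT:84275-84394, minus strand, and cox2 at MT:6264-6383, plus strand, and are shown once in lower case.
orf291 and cox2: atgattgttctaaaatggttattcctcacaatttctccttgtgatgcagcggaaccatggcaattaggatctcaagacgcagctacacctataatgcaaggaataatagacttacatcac
orf291 had 62.2, 70.7 and 75.3 FPKM, which overlapped the values of orf313.

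Shorter pieces were found in 3 other tied loci. orf262, described as ATP synthase 9 mitochondrial, matched the first 78 bases of nad5 at 96.15%, and it held no match to atp9 of at least 50 bases at 80% identity. It had 100.4, 93.1 and 105 FPKM. ATMG01010 matched 108 bases of nad5 at 87.04% and had 33.9, 29.7 and 29.7 FPKM. ATMG00910 matched the first 73 bases of rps12 at 95.89% and, from base 69 on, 80 aligned bases of nad6 at 81.25%, and was among the lowest loci at 1.07, 1.58 and 1.18 FPKM. Where reads fall in a shared stretch, their division between the loci is uncertain.

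The other described reading frames were lower. orf199, described as a Ycf1 protein, had 42.6, 45.1 and 48.9 FPKM, and orf110a, described as holding a domain of the large Rubisco chain, had 34.5, 35.4 and 44.2. orf161, a putative membrane lipoprotein, had 18.7, 19.6 and 20.8 FPKM. orf251, described as a mitovirus RNA polymerase, was lowest of the 7 at 4.82, 4.07 and 3.88. The median of the mean FPKM was 45.5 over these 7 reading frames, 11.3 over the 29 unknown or pseudogene loci and 202 over the 17 with a described role. Among the unknown loci, ATMG01220 was highest at 173, 183 and 183 FPKM, followed by ATMG00400 at 134, 145 and 145. ATMG00500 and ATMG01210 had means of 87.6 ± 4.75 and 74.9 ± 9.31 FPKM (SD, n = 3).

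The 69 undescribed loci ranged from 0 to 1975 FPKM with a median of 24.5, and 23 of them had means of at least 100 FPKM. ATMG00160 had 1778, 2023 and 2123 FPKM and ATMG00060 had 1813, 2021 and 2052, so that their values overlapped behind atp9. ATMG00270 followed with 1055, 1356 and 1439 FPKM, overlapping atp1. ATMG00640 had 1022, 1018 and 1107 FPKM, and ATMG00580 had 758, 972 and 974. The next means were those of ATMG00516 (819 ± 35.6), ATMG00080 (678 ± 5.59), ATMG00070 (619.8 ± 21.9) and ATMG01170 (611 ± 90.3), with SD over n = 3, beside ATMG01360 and ATMG00510 given above.

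Means of 348 ± 14.9 FPKM for ATMG00090, 338 ± 13.4 for ATMG01200, 295 ± 37.9 for ATMG00285 and 278 ± 6.42 for ATMG00660 (SD, n = 3) came next. ATMG00030, ATMG00650, ATMG00513, ATMG01000 and ATMG00690 lay between 247 and 205 FPKM, and ATMG01130, ATMG00520 and ATMG00570 at 199, 158 and 132. Lower loci included ATMG01350 at 68.5, ATMG00110 at 58.5, ATMG01020 at 56.1, ATMG00830 at 48.4 and ATMG01120 at 15.5 FPKM.

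In 3 cases a pair of mitochondrial loci had the same value in every library. ATMG00170 and ATMG00620 both had 26.3, 26.6 and 26.6 FPKM, ATMG00430 and ATMG01150 both had 10.2, 11.0 and 12.7, and ATMG00440 and ATMG01140 both had 6.78, 6.38 and 7.29. Each of these pairs includes a locus whose sequence has 2 equally good matches on the mitochondrial sequence. The reads of such loci cannot be told apart.

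The nuclear copy of the mitochondrial genome bears on every described locus. This follows from the selection, since loci were described only through notes that tie them to nuclear genes. Nuclear copies of the 69 undescribed loci were not looked for. At 95% identity or more, 73.2% of the 367808 bases of the mitochondrial sequence matched chromosome 2. The 12 matches of at least 5000 bases lay between positions 3239038 and 3509765, and the longest had 50638 bases at 99.90%. The reference tied the 53 loci to nuclear genes in 55 pairs, all on chromosome 2, and 36 of these had no mismatch or gap in the matched part. Among 24 base differences in the other pairs, 12 were C in the mitochondrion and T in the nucleus or G and A, as read on the coding strand. For 46 pairs the nuclear gene had values.

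Levels of the mitochondrial locus and of its nuclear copy went together. Across the 46 pairs Spearman's rho was 0.82 and Pearson's r of log2(FPKM + 1) was 0.87, given as a description across genes that share sequence and libraries. In 28 pairs both values were within 2-fold of each other in every library. The mitochondrial locus was higher by more than 2% in every library in 18 pairs, and the nuclear gene in 18. In 7 pairs the values were equal within 2% in every library, and all 7 were identical over at least 95% of the coding sequence. atp8 and its copy AT2G07707 both had 792, 888 and 861 FPKM, and rps12 and AT2G07675 both had 33.2, 34.0 and 34.5. orf313 and AT2G07718 both had 60.3, 70.5 and 71.7 FPKM. The other 4 loci were ATMG00540, ccmC, ATMG01150 and ATMG01310.

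Identity of sequence did not always come with equal values. In the 8 identical pairs whose nuclear exons hold the coding sequence and nothing else, 5 were equal within 2%, and nad3 was close, with ratios of 0.991 to 1.02. atp6-1 exceeded its copy 1.09- to 1.10-fold. nad2b exceeded its copy AT2G07689, which had 256, 289 and 293 FPKM, 1.85- to 2.06-fold. In the 15 identical pairs whose nuclear exons extend further, the nuclear gene was higher in 11. The lowest ratios among these 11, 0.206 to 0.221, were those of orf161. Another of the 11 was atp9, whose copy AT2G07671 had 7076, 7385 and 7694 FPKM, for ratios of 0.715, 0.709 and 0.729. cox3 and cob were also below their copies, with ratios of 0.751 to 0.792 and 0.742 to 0.754. Exon extents here are those of TAIR10.1, and the annotation behind the authors' values is not known. Of the 15 pairs, 2 were equal within 2%. One was orf313, although AT2G07718 has 5799 exon bases in TAIR10.1 for 942 coding bases. The extents may therefore not be those that the values were computed over.

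The pairs with differences or partial matches spread more widely. Of 11 pairs matched over at least 95% with differences, 4 were within 2-fold in every library, compared with 19 of the 23 identical ones. The rpl2 pair shown above had ratios of 3.97, 3.85 and 3.86, with 42.1, 42.3 and 40.9 FPKM for AT2G07715. orf291 exceeded AT2G07695 2.54- to 2.76-fold and orf262 exceeded AT2G07777 3.44- to 3.98-fold. ccmFC exceeded AT2G07815, of which the match covers 34.8%, 10.8- to 11.7-fold. Where a locus and its copy are identical, the reads do not show which genome they came from, so the levels of both rest on how the authors' software divided them. That division was not tested here.

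**Figure D4:**
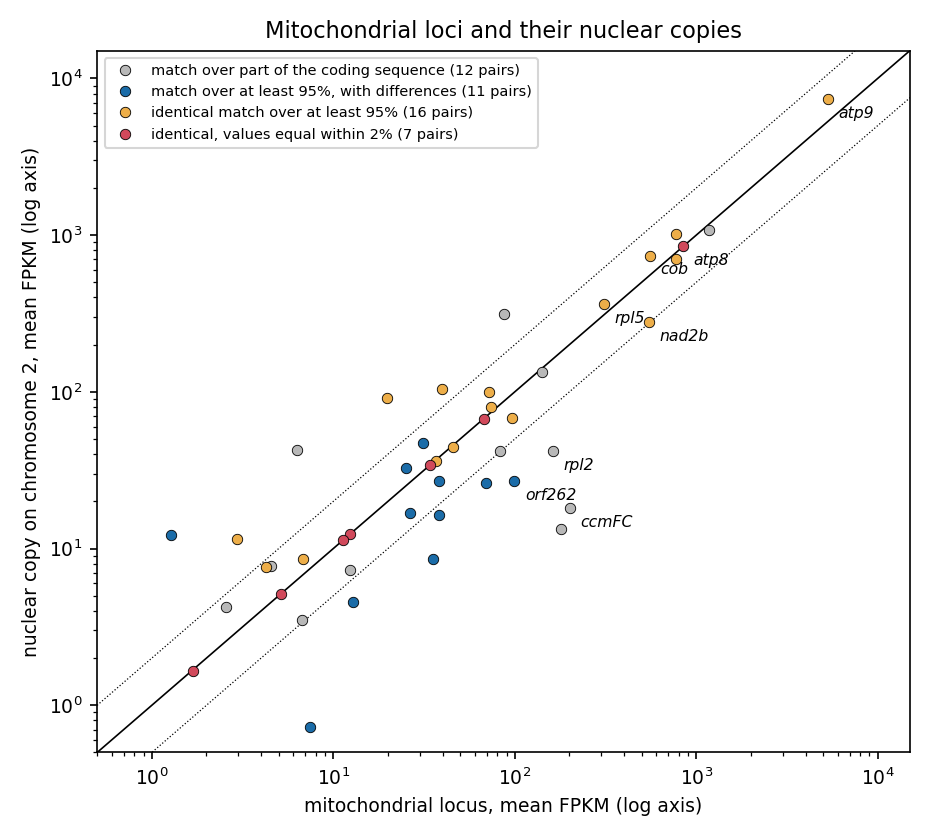
Mean FPKM over 3 libraries of 46 nuclear copies against that of their mitochondrial loci (both axes log), with a line at equal values, dotted lines at 2-fold, and colours for the kind of match. The 7 red pairs lie on the line of equal values, and rpl2 and ccmFC lie below it. Within 2-fold in every library were 19 of 23 identical pairs, 4 of 11 with differences and 5 of 12 partial matches.

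Differences between libraries were small at high levels and larger at low ones. The median log2 range between libraries was 0.13 for the 35 mitochondrial loci with means of at least 100 FPKM and 0.14 for all loci at that level. With means of at least 1 FPKM it was 0.26 for mitochondrial loci and 0.16 for all loci. Among the 118 loci with a mean of at least 1 FPKM, 2 differed more than 2-fold between their highest and lowest library on the log2(FPKM + 1) scale, while 0.655% of the 17868 loci of the series with such a mean did. These were ATMG01400, with the values given above, and ATMG00770, with 5.93 FPKM in library 1, 4.17 in library 3 and a mean of 6.71 ± 3.01 (SD, n = 3), its highest value being in library 2. None of the 84 loci with a mean of at least 10 FPKM differed that much. The next largest ranges, 0.85 to 0.54 on the log2 scale, belonged to ATMG00310, ATMG00740, ATMG00840, ATMG00710, ATMG00720, ATMG00880, ATMG00260 and ATMG01260. Of these, ATMG00740 had 12.9, 23.6 and 13.9 FPKM, with library 2 high. Among the loci with means of at least 100 FPKM, ATMG00270 had the largest range, 0.45.

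Small differences between libraries were shared by many mitochondrial loci. At means of at least 10 FPKM, library 1 was the lowest for 60 of 84 mitochondrial loci, while it was the lowest for 25.7% of the 8451 loci of the series at that level. The same held for 15 of the 17 described loci. Library 1 was also the lowest for 29 of 41 nuclear copies of mitochondrial sequence. These copies share sequence with mitochondrial loci, so they are not an independent group. The median deviation of the mitochondrial loci from their mean was -0.07 in library 1, 0.01 in library 2 and 0.06 in library 3 on the log2 scale. Chloroplast loci were lowest in library 1 in 62 of 72 cases.

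Nuclear genes for respiratory subunits did not share this order. Of 47 genes of complexes I to V, 3 were lowest in library 1 and 39 in library 2, which was the lowest library for 45.7% of all loci at that level. Their median deviations were 0.04, -0.07 and 0.02. With 1 library at each point these counts have no test, and the part that the share of organelle RNA in each library has in them was not tested.

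**Figure D5:**
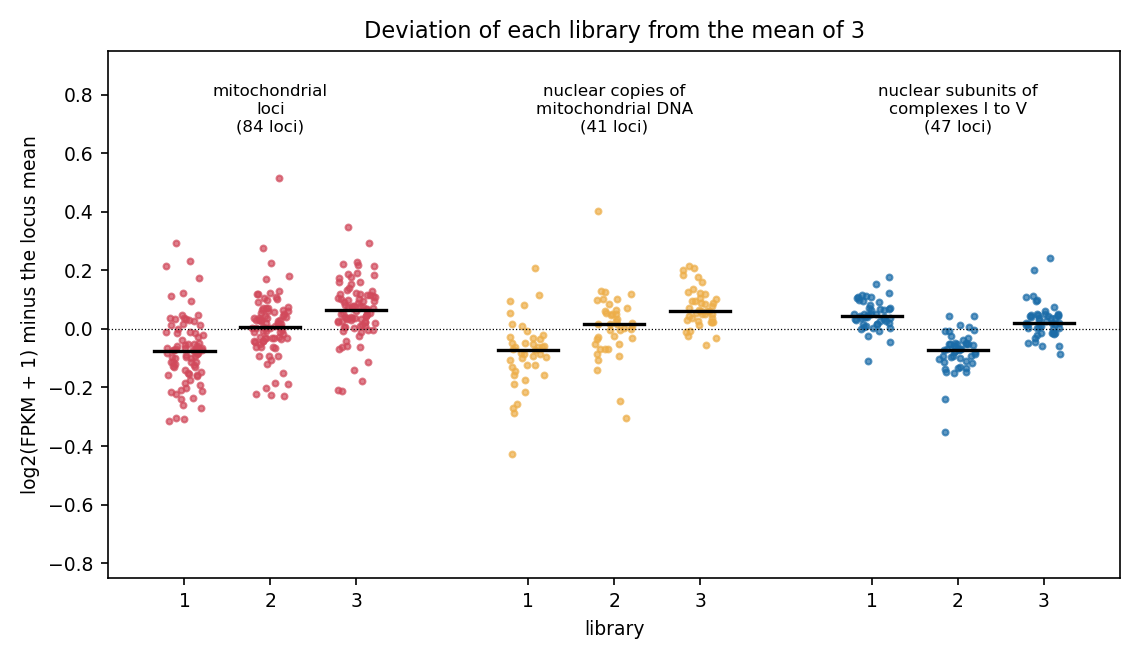
Deviation of each library from the locus mean, as log2(FPKM + 1), for loci with a mean of at least 10 FPKM, with 1 point per locus and lines at the medians. The medians of mitochondrial loci and of nuclear copies, which share sequence and are not independent, are below 0 in library 1, at -0.07 each. Nuclear subunits are lowest in library 2, also at -0.07.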

How the data were processed

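RNA of 3 libraries of 1 group was analysed. Each deposited file lists 36172 transcripts with a value that the authors made. Headers give no unit, and FPKM was assumed since Cufflinks 2.1.1 stands in the submitters' processing notes, beside TopHat2 2.0.9 and TAIR10, without roles. For the annotation, the strand setting and any scaling, nothing is given in the sources used here. The values sum to 2064646, 2000114 and 1957870. Read depth is not stated. Among 10527 single-transcript nuclear loci, 520, 540 and 822 values of a few steps were examined in libraries 1, 2 and 3, and 41.0%, 41.3% and 43.3% of them were whole multiples of the best-fitting step within 0.05, so counts could not be recovered and no counting interval is given. A value of 0 may be a failed estimate.

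Members and gene lists were chosen with earlier results of these data known. Values were summed per locus. Ratios to a reference locus were fitted with limma 3.58.1 in R 4.3.3 (intercept model, empirical Bayes with trend) on log2(FPKM + 1), over loci with a mean of at least 1 FPKM, with Benjamini-Hochberg adjustment over all of them. The threshold was 0.05. The pseudocount makes differences of low loci look smaller. On simulated data over repeated draws, the fit was required only to recover a set difference. No limit was set on how often equal loci were called, so this does not vouch for the adjusted p-values. Loci fitted against 1 reference share its error, so their calls are not independent. Mitochondrial sequence in the nucleus was found with BLAST 2.17.0 in TAIR10.1 as matches of at least 100 bases at 95% identity. The tied pairs came from the annotation notes. For each of them the longest BLAST match of the nuclear coding sequence was taken, without a set length or identity. Pieces of named genes in reading frames were matches of at least 50 bases at 80%.

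Loci named were all members of the mitochondrial lists, and, of the other loci, the 15 highest, the 10 with the largest range between libraries at a mean of at least 1 FPKM, and loci sharing a near-identical copy. Of each nuclear list the 2 highest and the lowest were named. Members of the mitochondrial lists that no annotation ties to a product are given by identifier, so the comparisons by complex hold fewer loci than planned. Further loci named, and nad2b and cob as references, were chosen after the values were seen. Figures were drawn with matplotlib 3.10.9 under Python 3.11.15.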

Additional observations from a re-analysis of the deposited data

How the results depend on the processing

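Alternatives were a pseudocount of 0.1, no filter on low values, each library left out in turn, and the variances of both genes in place of that of the ratio. Among the pairs tested, rps7 against rps4 ranged from -0.07 to 0.02 with single libraries left out, changing sign without library 3. The call of cox3 against cob was lost without library 2 or 3, so that its count of 1 ranged from 0 to 1 when single libraries were left out. The other pair calls kept their direction and stayed below the threshold under all 6 alternatives each. The count of loci more than 2-fold apart was 2, and it ranged from 0 to 2 with single libraries left out: it was 0 without library 2 and 1 without library 3. It was 3 with a pseudocount of 0.1. At least 0.1 FPKM in every library was reached by 120 loci and at least 10 FPKM by 84. The share of summed FPKM was 1.46% over transcripts with a locus. Ratios of mitochondrial to nuclear medians without single libraries ranged from 1.93 to 2.15 for complex I, 10.7 to 12.5 for complex III, 22.3 to 25.4 for complex IV, 9.96 to 10.4 for complex V and 5.66 to 6.50 for ribosomal proteins. These medians could not be computed without loci that have a nuclear copy, since only loci tied to a nuclear gene were described. Alternatives added after the data were seen gave 8 and 10 equal pairs at tolerances of 5% and 10%. Scaling by the summed FPKM of nuclear genes left 64 of 84 loci lowest in library 1, where 40.2% of all loci were lowest there. No paired analysis was possible because the samples form 1 group. Low loci are limited by an unknown depth.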
